A study of Mus musculus with 13 samples.

Results

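Heparan sulfate proteoglycans are core proteins that carry long sulfated sugar chains, and 10 genes of this group were followed here in mouse glomeruli, the capillary tufts in which the kidney filters blood. The members were taken by their symbols: 3 core proteins (Agrn, Hspg2 and Sdc4), 5 enzymes that build the sulfation pattern of the chain (Ndst1, Ndst2, Glce, Hs2st1 and Hs6st1) and 2 sulfatases that edit it (Sulf1 and Sulf2). All 10 were found among the 35967 gene symbols of the table, and all 10 were among the 14322 genes that passed the filter on low values (TPM, the deposited level relative to all transcripts of a library, no lower than 1 in 4 or more of 13 libraries).

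The model was membranous nephropathy (MN), a glomerular disease in which antibodies bind podocytes, the epithelial cells that wrap the capillaries. Wildtype Balb/c mice received 2.0 mg of rabbit IgG into the peritoneum. The study's methods describe male mice only for this model. The day 1 MN (n = 4) and day 5 MN (n = 4) groups received IgG against the podocyte protein THSD7A and were killed after 1 and 5 days. The control group (n = 5) received preimmune rabbit IgG, and controls of both days were combined, so the day of each control library is unknown. The antibody is passively transferred, and the labels give no age for these mice. Glomeruli were isolated with magnetic beads perfused through the renal artery, and each library holds the RNA of all glomerular cells, so that fewer cells of a type and less RNA per cell cannot be told apart.

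Agrin, encoded by Agrn, and perlecan, encoded by Hspg2, are secreted into basement membranes, where they bind laminin, nidogen and cell receptors. Agrin is the main heparan sulfate proteoglycan of the mature glomerular basement membrane (GBM), whereas syndecan-4, encoded by Sdc4, spans the cell membrane. On a growing chain, N-deacetylase/N-sulfotransferases (Ndst1, Ndst2) replace acetyl with sulfate groups, Glce converts glucuronic into iduronic acid, and Hs2st1 and Hs6st1 add sulfate at the 2-O and 6-O positions. Sulf1 and Sulf2 act outside the cell and remove 6-O sulfate, which changes how the chain binds growth factors.

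Hspg2 passed the day 5 test and Agrn did not, although the difference between their changes was not tested. The upstream sequences of both genes are shown for this reason. Each is 180 bases long, 5′ to 3′ on the gene's strand, ends upstream of the annotated gene start, and comes from the RefSeq promoter table of GRCm38.p6, matched without a mismatch to GRCm39 at chr4:137195864-137196043 (Hspg2) and chr4:156282016-156282195 (Agrn). Capitals mark the GC box, GGGCGG, on either strand, with adjoining or overlapping matches run together.
Hspg2: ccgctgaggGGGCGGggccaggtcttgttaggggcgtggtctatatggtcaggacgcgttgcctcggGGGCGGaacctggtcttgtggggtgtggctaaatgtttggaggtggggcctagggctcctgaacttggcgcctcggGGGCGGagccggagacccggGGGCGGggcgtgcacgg
Agrn: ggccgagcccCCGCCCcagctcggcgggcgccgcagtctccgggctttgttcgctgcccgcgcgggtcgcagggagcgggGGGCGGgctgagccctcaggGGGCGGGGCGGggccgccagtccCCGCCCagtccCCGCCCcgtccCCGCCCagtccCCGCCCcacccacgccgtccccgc
The GC box matched 4 times in the Hspg2 window and 8 times in the Agrn window, and 21.1% of 32851 promoter windows of this length held at least 1 match. The G and C content was 69.4% for Hspg2 and 83.9% for Agrn, against a median of 51.1% over all windows. Neither window held TGACTCA (AP-1, in 3.14% of windows), GCGTGGGCG (EGR1, in 0.265%) or TATAAA (a core promoter motif, in 8.37%), each searched on both strands. The table held entries for 8 of the 10 members, all but Sulf1 and Ndst1. It held 2 entries for Agrn, and the window ending nearest upstream of the annotated gene start was taken.

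The genes lie on 7 mouse chromosomes of GRCm39. Agrn (chr4:156249740-156282014, minus strand) and Hspg2 (chr4:137196079-137298231, plus strand) share chromosome 4, Sulf1 (chr1:12762501-12931416, plus strand) and Hs6st1 (chr1:36107437-36145527, plus strand) share chromosome 1, and Sulf2 (chr2:165915009-165998118, minus strand) and Sdc4 (chr2:164266025-164285807, minus strand) share chromosome 2. The others are Hs2st1 (chr3:144134693-144276528, minus strand), Glce (chr9:61964527-62030067, minus strand), Ndst2 (chr14:20773794-20784737, minus strand) and Ndst1 (chr18:60817566-60881766, minus strand). The spans of 4 members overlap another protein-coding gene in the annotation, namely Hspg2 (Ldlrad2), Sulf2 (Ncoa3), Ndst1 (Rps14) and Hs2st1 (Selenof). Of the distinct 31-base words in a member's transcripts, between 0% (Agrn, Sulf1 and Ndst2) and 4.08% (Hs2st1) also occurred in another protein-coding gene. Sulf1 and Sulf2 shared no such word, nor did Ndst1 and Ndst2, as measured on the annotated protein-coding transcripts.

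In control glomeruli the levels of the members, in TPM and therefore per length, spanned from syndecan-4 to the epimerase. Sdc4 was at 492.6 ± 72.4 TPM (SD, n = 5), Agrn at 182.4 ± 16.2 and Hspg2 at 140.8 ± 19.0. The ranges of these 3 genes over the control libraries did not overlap. Sulf2 (56.4 ± 5.09 TPM), Sulf1 (45.2 ± 8.35) and Ndst1 (42.0 ± 1.23) followed, and each overlapped the next in range, although Sulf2 exceeded Sulf1 in 5 of 5 control libraries. Ndst2 was at 32.5 ± 3.77 TPM, below Ndst1 in every control library. Hs2st1 (21.4 ± 0.87 TPM) and Hs6st1 (20.1 ± 2.11) overlapped, and Glce was lowest at 12.3 ± 1.09. Among tested genes these control levels ran from the 35.8th percentile (Glce) to the 98.2nd (Sdc4). At day 1 Ndst1 stood above Sulf1 by its mean, and at day 5 Sulf1 stood below Ndst2 in 4 of 4 libraries, while Hspg2 overlapped Agrn in range. The summed level of the 10 members lay between 925.4 TPM (control replicate 2) and 1142.2 TPM (day 5 replicate 1).

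**Figure D1:**
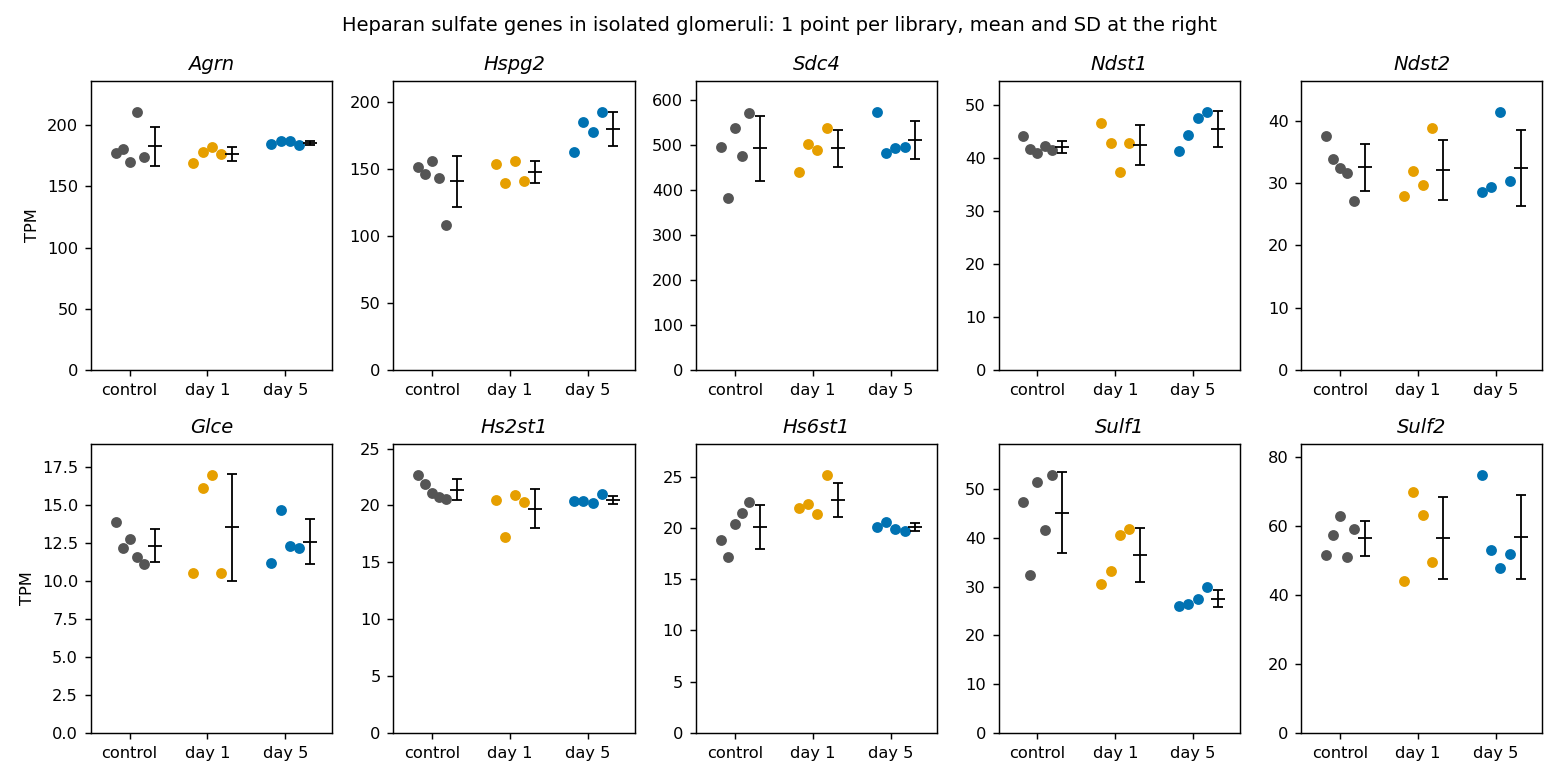
TPM of each member (vertical axes, starting at 0) in the control (n = 5), day 1 MN (n = 4) and day 5 MN (n = 4) libraries; points are libraries, and the bar beside each group is the mean with its SD. The day 5 libraries of Hspg2 lie above all control libraries (162.4 to 192.2 against 107.8 to 155.4 TPM) and those of Sulf1 below (26.1 to 30.0 against 32.5 to 53.0 TPM), and the other 8 members overlap.

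The marker genes of podocytes, glomerular endothelium and mesangium were abundant in every library, with summed levels of at least 8167.7, 7713.3 and 2339.6 TPM, and those of leukocytes were low (7.62 to 18.3 TPM). Tubular markers summed to 412.9 to 1034.1 TPM in controls, 809.0 to 1408.0 at day 1 and 589.3 to 738.2 at day 5. Proliferation markers summed to 12.9 to 24.4 TPM in controls, 10.2 to 22.5 at day 1 and 84.7 to 141.9 at day 5. Mesangial markers summed to 2339.6 to 3324.2 TPM in controls and 3245.6 to 3459.1 at day 5. The part of these shifts in the member values was not tested.

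By day 5 a single member was called, the sulfatase gene Sulf1, which fell to 0.636 of its control level, and perlecan (Hspg2) rose 1.31-fold without reaching the fold limit. A call required an adjusted p under 0.05 (limma, with Benjamini-Hochberg adjustment over all genes tested) and an absolute log2 fold change above 0.5, a 1.41-fold change. With this rule 3.21% of all tested genes were called at day 5 against 1 of 10 members, and on the adjusted p alone 6.12% against 2 of 10. The median log2 fold change of the 10 members at day 5 was 0.05, beside -0.00322 over all genes.

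The plot of member fold changes shows the 3 comparisons side by side. The control libraries enter both comparisons with control, so those are not independent.

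**Figure D2:**
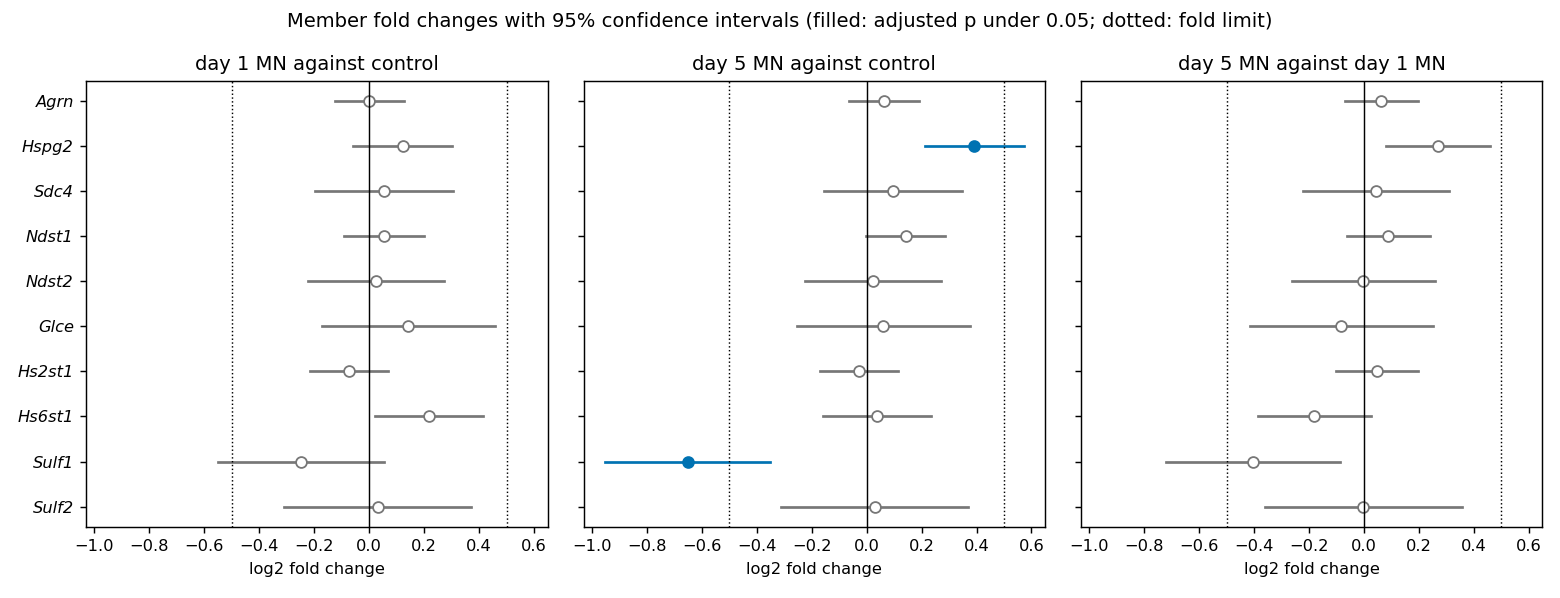
Log2 fold change (horizontal axis) with its 95% confidence interval for each member in the 3 comparisons; filled points have an adjusted p under 0.05 in limma and dotted lines mark the fold limit of 0.5. Sulf1 (-0.65) and Hspg2 (0.39) in day 5 MN against control are the filled points.

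Among the core proteins, perlecan rose at day 5, and agrin and syndecan-4 did not pass the test. Hspg2, the large multidomain core protein, was at 151.1, 146.4, 155.4, 143.0 and 107.8 TPM in the controls, 153.3, 139.7, 155.5 and 141.1 at day 1, and 162.4, 184.8, 177.6 and 192.2 at day 5. Every day 5 library was above every control and every day 1 library, whereas the day 1 and control ranges overlapped. The log2 fold change at day 5 was 0.39 (SE 0.08, 95% confidence interval 0.21 to 0.57, limma adjusted p = 0.0135). Control replicate 5 was far below the other controls for Hspg2. It also had the highest tubular marker sum of the controls, and a link between the 2 was not tested. Without control replicate 5 the change was 0.31 (limma adjusted p = 0.00755). Leaving out day 5 replicate 2 gave 0.37 with a limma adjusted p of 0.0527, the single one of 13 such fits in which Hspg2 did not pass.

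Agrn was at 177.4, 180.5, 169.6, 210.5 and 174.0 TPM in the controls, 169.2, 177.7, 182.1 and 175.9 at day 1, and 184.3, 187.0, 186.5 and 184.0 at day 5. In plain TPM, before scaling, the day 5 libraries differed from each other by little (SD 1.51 TPM). They lay within the control range, which control replicate 4 widened upwards. The scaling factors of the day 5 libraries ran from 0.955 to 1.04, so the scaled values that entered the test lie further apart. The log2 fold change at day 5 was 0.06 (SE 0.06, 95% confidence interval -0.06 to 0.19, limma adjusted p = 0.619). Without control replicate 4 the other controls spanned 169.6 to 180.5 TPM, below all day 5 libraries, and the change was 0.11 (limma adjusted p = 0.213). Perlecan made up 43.5% ± 3.98 (SD, n = 5) of the summed TPM of both genes in controls, 45.5% ± 1.60 (n = 4) at day 1 and 49.1% ± 1.78 (n = 4) at day 5. In 3 of 4 day 5 libraries this share was above all controls, and it was not tested.

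Sdc4, the cell-surface member, was at 495.6, 381.8, 538.1, 475.3 and 572.1 TPM in the controls, 439.8, 502.9, 488.2 and 538.5 at day 1, and 573.3, 481.3, 493.4 and 495.1 at day 5. These 3 ranges overlapped, and the log2 fold change at day 5 was 0.10 (SE 0.12, 95% confidence interval -0.16 to 0.35, limma adjusted p = 0.722).

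Of the sulfatases, Sulf1 was lower at day 5 and Sulf2 did not pass the test. Sulf1 was at 47.3, 32.5, 51.5, 41.7 and 53.0 TPM in the controls, 30.5, 33.3, 40.7 and 41.8 at day 1, and 26.1, 26.5, 27.5 and 30.0 at day 5. Every day 5 library was below every control library and every day 1 library, with day 1 in between and overlapping the controls. The log2 fold change at day 5 was -0.65 (SE 0.14, 95% confidence interval -0.95 to -0.35, limma adjusted p = 0.0135). Sulf1 was called in all 13 fits that left out 1 library, with log2 fold changes between -0.77 (without control replicate 2, its lowest control) and -0.58.

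Sulf2 was at 51.4, 57.2, 62.9, 51.1 and 59.2 TPM in the controls, 44.0, 69.8, 63.0 and 49.4 at day 1, and 74.8, 53.0, 47.7 and 51.7 at day 5. The MN libraries fell on both sides of the control range at each day. The log2 fold change at day 5 was 0.03 (SE 0.16, 95% confidence interval -0.31 to 0.37, limma adjusted p = 0.953). Whether the changes of the 2 sulfatases differ from each other was not tested. Sulf1 gave 44.3% ± 4.68 (SD, n = 5) of the summed sulfatase TPM in controls, 39.6% ± 5.61 (n = 4) at day 1 and 33.1% ± 5.08 (n = 4) at day 5. This share was 25.9%, 33.3%, 36.5% and 36.7% in the day 5 libraries, and the upper 2 values lay just inside the control range because control replicate 2 was at 36.2%.

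**Figure D3:**
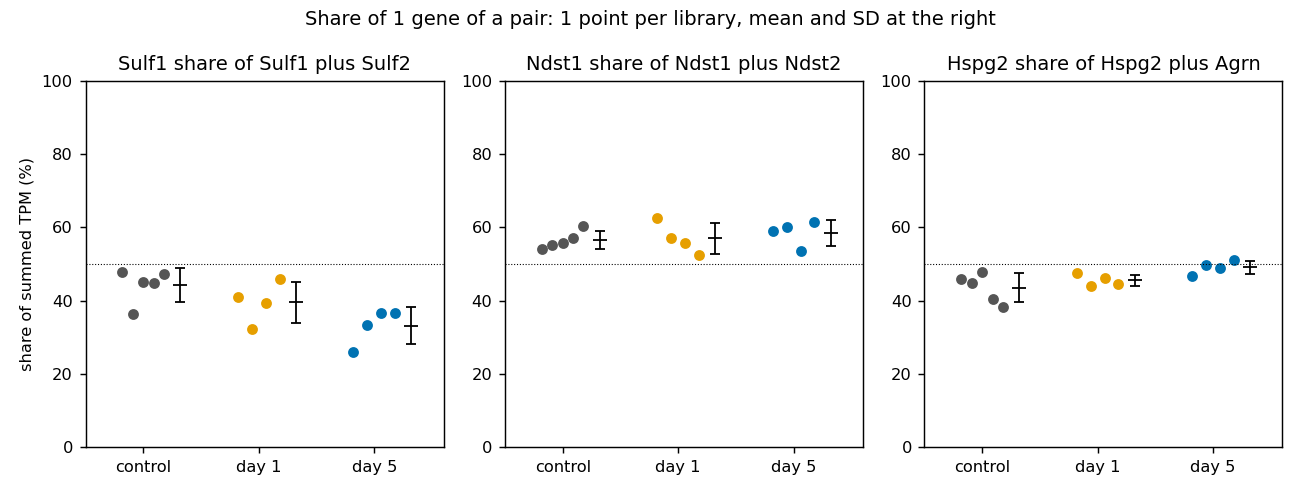
Share in percent of the first gene in the summed TPM of each pair (vertical axes, the full percent scale) for the control (n = 5), day 1 MN (n = 4) and day 5 MN (n = 4) libraries; points are libraries and bars the mean with its SD. The mean Sulf1 share goes from 44.3% in controls to 33.1% at day 5, and the mean Hspg2 share from 43.5% to 49.1%. For the Ndst1 share the means are 56.5% and 58.5%. The control and day 5 ranges overlap in every pair.

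None of the 5 chain-modifying enzymes passed the test at either day. Ndst1, the more abundant N-sulfotransferase, was at 44.0, 41.7, 40.8, 42.2 and 41.4 TPM in the controls and at 41.2, 44.2, 47.5 and 48.6 at day 5. In 3 of 4 day 5 libraries it exceeded all controls, and its log2 fold change was 0.14 (SE 0.07, 95% confidence interval -0.00232 to 0.29, limma adjusted p = 0.256, unadjusted p = 0.0533). Ndst2 was at 32.4 ± 6.01 TPM (n = 4) at day 5, with replicate 3 at 41.4 and the other libraries at 28.5 to 30.4. Its log2 fold change was 0.02, and Ndst1 gave 56.5% ± 2.47 (SD, n = 5) of the pair in controls and 58.5% ± 3.50 (n = 4) at day 5.

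Hs6st1, which adds the 6-O sulfate that the sulfatases remove, was at 18.8, 17.2, 20.4, 21.5 and 22.5 TPM in the controls, 22.0, 22.3, 21.4 and 25.2 at day 1, and 20.1, 20.6, 19.9 and 19.7 at day 5. Its day 1 libraries lay in the upper part of the control range or above it, and its day 5 libraries lay inside it. At day 1 the log2 fold change was 0.22 (SE 0.09, 95% confidence interval 0.02 to 0.42), with an unadjusted p of 0.0319 and a limma adjusted p of 0.362. Tubular markers, taken over all 10, were also above control then, by a median of 0.73 on the log2 scale. None of these 10 passed on the adjusted p, and a link to the Hs6st1 values was not tested.

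Hs2st1 was at 20.6 to 22.7 TPM in controls (median 21.1), 17.2 to 20.9 at day 1 and 20.2 to 21.0 at day 5, with a log2 fold change at day 5 of -0.03. Glce was at 11.1 to 13.9 TPM in controls (median 12.2), and its day 1 libraries separated into 2 at 10.5 and 2 at 16.1 and 17.0, giving a coefficient of variation of 26.1% there against 8.88% in controls. At day 5 it was at 11.2 to 14.7 TPM, with a log2 fold change of 0.06. Over the 8 members that did not pass at day 5, the 95% confidence intervals together ran from -0.31 to 0.38 on the log2 scale, so that each interval lay inside the fold limit.

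At day 1 no member was called, and 0.0908% of all tested genes were, which is 13 genes. Without control replicate 5 the number was 218 genes and still no member. The members' median log2 fold change was 0.04, with 7 above and 3 below 0. At an unadjusted p under 0.05, 1 of 10 members passed, beside 12.6% of all genes. Sulf1 was at a log2 fold change of -0.25 (95% confidence interval -0.55 to 0.05, limma adjusted p = 0.486) and Hspg2 at 0.12 (-0.06 to 0.30, limma adjusted p = 0.575). For 9 of 10 members, all but Sulf1, the interval at day 1 lay inside the fold limit.

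Between the MN days no member passed either, while 1.81% of all genes were called. Sulf1 was lower at day 5 than at day 1 by a log2 fold change of -0.40 (95% confidence interval -0.72 to -0.09, unadjusted p = 0.0166, limma adjusted p = 0.195). Hspg2 was higher by 0.27 (0.08 to 0.46, unadjusted p = 0.00926, limma adjusted p = 0.152), and without control replicate 5 its adjusted p was 0.022, the single one of 13 such fits in which it passed. In plain TPM, the day 5 and day 1 libraries did not overlap for 4 of 10 members (Agrn, Hspg2, Sulf1 and Hs6st1), and for 11.0% of all tested genes. Against control, no member was free of overlap at day 1, beside 4.22% of all genes, and 2 of 10 were at day 5, beside 10.8%. Overlap was not counted on the scaled values.

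The rest of the heparan sulfate pathway was measured by 55 further genes, of which 46 were tested. None was called at either day. At day 5, 3 of the 46 had an adjusted p under 0.05, a share close to the 6.12% of all tested genes, and the median log2 fold change of the 46 was 0.06. The 3 were higher and are given as values. One of these, the chain polymerase gene Ext2, was at 132.8 ± 5.78 TPM (n = 5) in controls and 149.3 ± 8.08 (n = 4) at day 5, a log2 fold change of 0.20 (SE 0.05, limma adjusted p = 0.0208). The others, named after their values were seen, were Gpc3, a core protein anchored in the membrane by a lipid (0.37, SE 0.10, limma adjusted p = 0.0488), and Naglu, a lysosomal enzyme of chain breakdown (0.33, SE 0.08, limma adjusted p = 0.0263). Of the 13 fits without 1 library, Ext2 passed in 8 (adjusted p up to 0.0703, without day 5 replicate 1), Gpc3 in 2 (up to 0.161, without day 5 replicate 2) and Naglu in 6 (up to 0.0874, without day 5 replicate 2).

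The most abundant genes of several other steps did not pass the test at day 5. These were Col18a1 among the other core proteins (274.6 ± 24.2 TPM in controls and 299.3 ± 26.1 at day 5), B3gat3 of the linkage region (81.3 ± 7.03 and 76.7 ± 1.29) and Hs3st3b1, a 3-O-sulfotransferase (167.4 ± 16.7 and 152.7 ± 8.90). Papss1, which makes the sulfate donor, was at 80.0 ± 6.46 TPM in controls and 85.4 ± 4.43 at day 5. No linkage enzyme, donor-supply gene or other chain-modifying enzyme passed at any comparison.

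Genes of GBM proteins other than agrin were examined next. Of 10 tested laminin, nidogen and collagen IV genes, 5 were called higher at day 5 and none lower. The shares called higher and lower over all tested genes were 2.42% and 0.789%. As with the members and the other lists, these genes were chosen with earlier results of these data known, so the counts are a description. The median log2 fold change of the 10 genes was 0.49. Nid2, a nidogen that links laminin to collagen IV, rose from 60.5 ± 8.34 TPM (n = 5) to 110.2 ± 2.89 (n = 4), a log2 fold change of 0.91 (SE 0.09, limma adjusted p = 5.03e-05). Lamc1, the laminin gamma chain of the GBM, rose by 0.58 (SE 0.08, limma adjusted p = 0.000821). The collagen IV chains Col4a1 (0.85, limma adjusted p = 0.0191), Col4a2 (0.85, limma adjusted p = 0.0403) and Col4a5 (0.71, limma adjusted p = 0.00984) also rose. Not all collagen IV chains did so. Col4a4, named after its values were seen, had the lowest log2 fold change of the 10 genes (0.0155) and did not pass.

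Nid1, named after its values were seen, passed on the adjusted p below the fold limit (0.41, limma adjusted p = 0.0103), close to Hspg2 in size. The most abundant GBM gene, Lamb2, was at 317.4 to 375.6 TPM in controls and 332.4 to 361.7 at day 5, and had a log2 fold change of 0.02 (limma adjusted p = 0.866). Leaving out 1 library kept the call of Nid2 in 13 of 13 fits, of Col4a1 in 11 (adjusted p 0.0654 without day 5 replicate 1 and 0.0762 without day 5 replicate 2) and of Col4a2 in 4 (up to 0.133, without day 5 replicate 2). For both collagen genes control replicate 5, the lowest for Hspg2, was also the lowest control (187.0 and 111.8 TPM).

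Genes of receptors for these matrix proteins were also examined. Of 6 tested at day 5, none was called, and 2 passed on the adjusted p, beside 6.12% of all tested genes. These were the integrin beta chain Itgb1 (636.5 ± 34.8 TPM in controls and 796.9 ± 64.9 at day 5, log2 fold change 0.36, limma adjusted p = 0.00787) and, named after its values were seen, Dag1. Dag1 encodes dystroglycan, which binds the laminin-like domains of agrin and perlecan. It was at 296.9 ± 20.9 TPM in controls, 298.5 ± 22.5 at day 1 and between 357.9 and 428.4 in the 4 day 5 libraries (mean 399.3), a log2 fold change of 0.46 (SE 0.08, limma adjusted p = 0.00357).

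**Figure D4:**
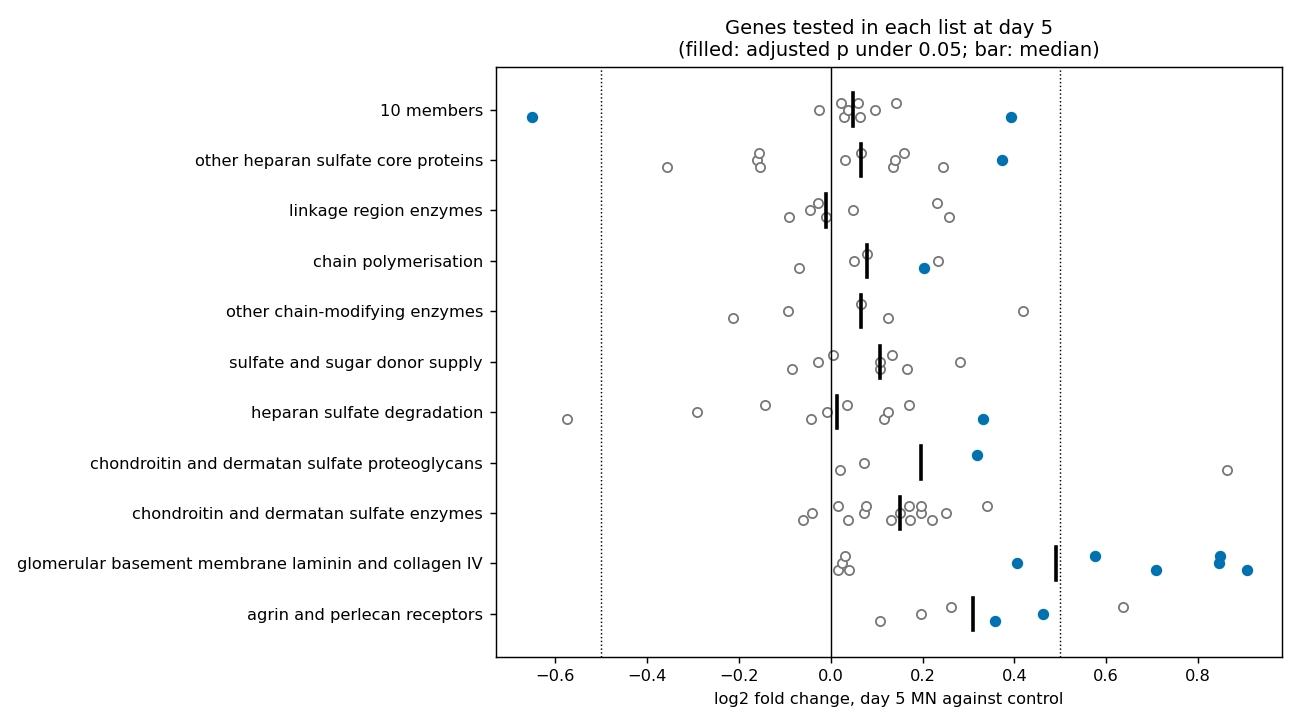
Log2 fold change of day 5 MN against control (horizontal axis) for every tested gene of the 10 members and of each list; filled points have an adjusted p under 0.05 in limma, bars are list medians and dotted lines the fold limit of 0.5. The members centre on 0.05 with Sulf1 and Hspg2 apart, and the GBM laminin, nidogen and collagen IV genes have a median of 0.49.

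Genes of chondroitin and dermatan sulfate, further chain types found on proteoglycans, gave no call. Of 4 tested core proteins 1 passed on the adjusted p at day 5, beside 6.12% of all tested genes. This was Bgn (biglycan), from 478.6 ± 59.2 TPM to 579.8 ± 42.0 (log2 fold change 0.32, limma adjusted p = 0.0498), and it passed in 2 of the 13 fits without 1 library (adjusted p up to 0.15, without day 5 replicate 1). Of 15 tested enzymes none passed, and the most abundant of them, Chst15, was at 63.5 ± 7.58 TPM in controls and 69.4 ± 3.63 at day 5.

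The tested genes most like Sulf1 over the 13 libraries, by the root mean square difference of control-centred log2 values, were Hoxc8 (0.124), Mtcl1 (0.126) and Cyp27a1 (0.137). Hoxc8, a homeobox gene, went from 81.0 ± 7.08 TPM (n = 5) through 65.4 ± 8.35 (n = 4) to 52.4 ± 3.38 (n = 4) in controls, day 1 and day 5. Cyp27a1, a sterol hydroxylase gene, went from 61.1 ± 6.52 through 50.2 ± 7.45 to 37.4 ± 3.43 TPM, and Mtcl1, a microtubule crosslinking factor gene, from 23.4 ± 3.69 through 19.3 ± 2.90 to 15.3 ± 1.34 TPM. They were picked for this likeness, so their levels are a description.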

How the data were processed

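Glomerular RNA was sequenced (paired-end reads, Novogene library set) in 13 libraries. Per the labels the submitters used FastQC 0.11.9, Trimmomatic 0.39 and kallisto 0.46.2 with GRCm39, and the authors deposited TPM per gene symbol, which are relative to all transcripts of the library. The authors' own test, DESeq2, ran on read counts that did not enter this work, which leaves the depth unknown and allows no counting interval. Groups and replicate numbers came from the sample titles.

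Each library's TPM were scaled by its median of ratios (0.955 to 1.04) over the 15772 genes never at 0, and log2(scaled TPM + 0.5) was used, so fold changes of low genes are understated. All 13 libraries entered 1 limma 3.58.1 fit in R 4.3.3, whose eBayes step used the trend option, and p-values were adjusted per comparison by Benjamini-Hochberg. The script was tested on simulated data. Plain TPM are printed as levels. The p-values set a group difference against the spread between libraries, which the paper describes as coming from independent animals.

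The members and lists were chosen with earlier results of these data known. Named genes were all members, list genes called in any comparison, the most abundant gene of each list by control mean, and the 3 tested genes most like each called member; exceptions are marked, and 1 gene under this rule is not reported here. Coordinates and transcript words came from GENCODE vM39, a later release than the authors' Ensembl annotation. Alternatives covered pseudocount, scaling, filter, trend, groups in the fit, replicate block, the adjusted p alone and single libraries left out. Plots were drawn with matplotlib 3.10.9.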

Additional observations from a re-analysis of the deposited data

Results flagged for a closer look

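Among 96 groups of libraries examined for the members, the other named genes and the pair shares, 9 held a library far from the rest, where chance alone gives about 1 in 20. In the controls, Agrn was high in replicate 4 (210.5 TPM, the others 169.6 to 180.5), Hspg2 was low in replicate 5 (107.8 TPM, the others 143.0 to 155.4), Hs3st3b1 was low in replicate 5 (138.2 TPM, the others 168.8 to 178.2), and replicate 2 was low for Col4a5 (34.4 TPM, the others 51.2 to 55.8) and for the Sulf1 share of both sulfatases (36.2%, the others 44.9% to 47.9%). At day 1, Hs2st1 was low in replicate 2 (17.2 TPM, the others 20.3 to 20.9) and Dag1 was high in replicate 4 (332.0 TPM, the others 284.7 to 290.9). At day 5, Ndst2 was high in replicate 3 (41.4 TPM, the others 28.5 to 30.4) and Sdc4 was high in replicate 1 (573.3 TPM, the others 481.3 to 495.1).

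Levels differed between the MN days for 3 named genes, none of them a member, by the test of day 5 MN against day 1 MN in limma. Because the controls of both days were combined, a change in the antibody's effect and a change with time alone cannot be told apart. The log2 difference was 0.71 for Nid2 (adjusted p = 0.000532), 0.49 for Lamc1 (adjusted p = 0.00654) and 0.41 for Dag1 (adjusted p = 0.0219).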

How the results depend on the processing

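Each alternative kept the call of Sulf1 at day 5, with log2 fold changes between -0.77 and -0.58, and no alternative that kept the fold limit called another member in any comparison. On the adjusted p alone, 2 members and 876 genes passed at day 5. Of 660 member fold changes recomputed, 615 kept their direction and their side of the call rule (adjusted p and fold limit together) and 45 changed sign, none of those with an adjusted p under 0.05 and none above 0.128 in size. On the adjusted p alone, Hspg2 crossed 0.05 in 2 fits without a call: at day 5 without day 5 replicate 2 (0.0527) and between the MN days without control replicate 5 (0.022).

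Genes called at day 1 numbered 6 without the filter, 7 without the trend, 2 with only the compared groups, 149 with the replicate number as a block, and 3 to 218 with 1 library left out. The 218 came without control replicate 5, and without it 437 genes were called between the MN days, where the range was 150 to 437. That comparison gave 153 genes with TPM of at least 1 in every library and 414 with only the compared groups. The cause was not tested.

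Same-numbered libraries did not deviate together (12 pairs, correlations -0.0563 to 0.0913, none over 0.1). The replicate block changed no member call. With it Col4a1 (adjusted p = 0.0755) and Col4a2 (adjusted p = 0.135) were not called at day 5, and Ext2, Gpc3, Naglu and Bgn did not pass. It gave Ndst2 -0.0241 at day 1 and -0.0265 at day 5, both reversed in sign.

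The other sign changes were near 0. Without scaling, day 1 gave Sulf2 -0.0144 and Ndst2 -0.0207, day 5 gave Sulf2 -0.006, Ndst2 -0.0124 and Lamb2 -0.0102, and day 5 against day 1 gave Sulf2 0.00838 and Ndst2 0.00836. Quantile normalization gave Lamb2 -0.0462 at day 5, and Ndst2 0.0111 and Sdc4 -0.00828 between the days. With 1 library left out, day 1 values ran from -0.0848 to 0.142 for Sulf2, -0.0687 to 0.0851 for Ndst2, -0.0419 to 0.126 for Sdc4 and -0.0258 to 0.0508 for Agrn. At day 5 they ran from -0.128 to 0.127 for Sulf2, -0.0759 to 0.0738 for Ndst2, -0.0234 to 0.0921 for Hs6st1, -0.000221 to 0.167 for Sdc4, -0.0236 to 0.102 for Glce and -0.0434 to 0.00336 for Hs2st1. Between the days they ran from -0.159 to 0.114 for Sulf2, -0.1 to 0.0903 for Ndst2, -0.033 to 0.0859 for Sdc4, -0.00989 to 0.0768 for Hs2st1 and -0.189 to 0.026 for Glce. Besides the fits without 1 library there were 9 other settings, among them the fit with only the compared groups. Under these 9 at day 5, Naglu passed on the adjusted p in 8 and Ext2 in 6 (up to 0.0654). Gpc3 passed in 3 (up to 0.0964) and Bgn in 2 (up to 0.102). Col4a2 was called in 5, and besides the block it was lost under quantile normalization (0.0509), without the filter (0.0825) and without the trend (0.0617). The depth behind these TPM is unknown, and the number of libraries limits the precision.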
